A study of Mus musculus with 24 samples.

Results

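The mouse Serpina1 and Serpina3 genes are 2 neighbouring groups of protease inhibitor genes on chromosome 12. The 9 described here, Serpina1a, Serpina1b, Serpina1c, Serpina1d, Serpina1e, Serpina3c, Serpina3k, Serpina3m and Serpina3n, were taken by gene symbol from the 54532 genes of the count table. RNA-seq was run on whole livers of 24 male mice, 8 to 10 weeks of age, after a 24 h fast. The study's reporting summary gives the strain as C57/BL6J, and the genetic background of the colonies was not checked here. There were 6 groups of 4 mice. The whole-body Rab30KO mice carried a CRISPR deletion of exon 4 of Rab30, a Golgi Rab GTPase, and were compared with wild-type littermates (Rab30 Ctrl). Rab30 L-/-, Cpt2 L-/- and DKO mice carried floxed Rab30, floxed Cpt2 or both, with a Cre transgene under the albumin promoter, so that the deletion was restricted to hepatocytes and other liver cells kept the genes. Cpt2 is required for the oxidation of long chain fatty acids in mitochondria. The ff;ff mice carried floxed Rab30 and Cpt2 without Cre and were littermates of the DKO mice.

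Serpins inhibit proteases by offering them a flexible loop, the reactive centre loop, as bait. The protease cuts the loop and is trapped in a covalent complex, so the residues of the loop decide which protease is met. Humans have 1 SERPINA1 gene (alpha-1 antitrypsin) and 1 SERPINA3 gene (alpha-1 antichymotrypsin), both made by hepatocytes and secreted into plasma, where they are among the acute phase proteins. In the mouse each has been copied into a cluster.

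In GRCm38 the Serpina1 copies lay on the minus strand in the order Serpina1b (ENSMUSG00000071178, chr12:103728156-103830373), Serpina1d (ENSMUSG00000071177, chr12:103763594-103773592), Serpina1a (ENSMUSG00000066366, chr12:103853589-103863562), Serpina1c (ENSMUSG00000079015, chr12:103894926-103904887) and Serpina1e (ENSMUSG00000072849, chr12:103946931-103958975). The annotated span of Serpina1b contained that of Serpina1d. Serpina3c (ENSMUSG00000066361, chr12:104146382-104153870) followed on the minus strand. Serpina3k (ENSMUSG00000058207, chr12:104338486-104346144), Serpina3m (ENSMUSG00000079012, chr12:104338486-104394257) and Serpina3n (ENSMUSG00000021091, chr12:104406729-104414329) lay on the plus strand, and Serpina3m and Serpina3k shared their annotated start and 60 exon bases. All 9 are protein-coding genes in the deposited table.

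The 5 Serpina1 coding sequences were 96.3 to 98.5% identical, and the closest were Serpina1a and Serpina1c, with 19 differing bases. The stretch that codes for the reactive centre loop is shown here because the loop is the bait offered to the protease. Each sequence runs 5′ to 3′ on the coding strand from the GENCODE M21 transcript, within the last coding exon, and capitals mark the positions at which the 5 copies are not all the same.
Serpina1b, chr12:103728317-103728397: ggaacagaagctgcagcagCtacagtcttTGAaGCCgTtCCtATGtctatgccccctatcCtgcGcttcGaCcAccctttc
Serpina1d, chr12:103763755-103763835: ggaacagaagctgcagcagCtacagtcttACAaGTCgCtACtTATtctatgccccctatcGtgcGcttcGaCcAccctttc
Serpina1a, chr12:103853750-103853830: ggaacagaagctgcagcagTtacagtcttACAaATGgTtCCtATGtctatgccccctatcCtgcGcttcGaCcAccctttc
Serpina1c, chr12:103895087-103895167: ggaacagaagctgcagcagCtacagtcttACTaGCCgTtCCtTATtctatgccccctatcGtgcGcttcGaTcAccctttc
Serpina1e, chr12:103947093-103947173: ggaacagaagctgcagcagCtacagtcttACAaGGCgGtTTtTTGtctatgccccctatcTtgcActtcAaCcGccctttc
Of the 81 positions, 18 (22.2%) differed. The first bases, which code for the start of the hinge of the loop, were shared, and the first difference was a base at which Serpina1a stood apart from the other copies. The Serpina3 loops differed at 49 of 90 aligned positions (54.4%), with the capitals marking these positions among the 4 genes.
Serpina3c, chr12:104147307-104147387: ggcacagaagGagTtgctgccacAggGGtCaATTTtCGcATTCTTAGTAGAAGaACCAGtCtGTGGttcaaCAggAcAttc
Serpina3m, chr12:104393769-104393858: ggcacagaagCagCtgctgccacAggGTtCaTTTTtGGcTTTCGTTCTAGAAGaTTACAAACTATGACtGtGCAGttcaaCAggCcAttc
Serpina3k, chr12:104345269-104345352: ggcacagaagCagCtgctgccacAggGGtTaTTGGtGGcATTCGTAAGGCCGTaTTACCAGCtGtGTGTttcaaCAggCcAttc
Serpina3n, chr12:104413448-104413537: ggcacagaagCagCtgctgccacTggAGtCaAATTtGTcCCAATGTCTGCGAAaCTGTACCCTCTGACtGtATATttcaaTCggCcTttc
The coding sequences of the 4 Serpina3 genes were 82.9 to 91.7% identical, and Serpina3k and Serpina3m were the closest.

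Reads from near-identical copies can be divided between them in ways that depend on the aligner and counter, and the counter was not given in the sources used here. Of all 100-base stretches in each gene's transcripts, the share found in no transcript of another gene was 85.6% for Serpina1e, 85.2% for Serpina1b, 70.7% for Serpina1d, 57.2% for Serpina1a and 41.5% for Serpina1c. It was 95.1% for Serpina3k, 93.9% for Serpina3m, 99.8% for Serpina3n and 100% for Serpina3c. The read length was not given either, and the shares depend on it. With stretches of 50 and 150 bases they were 25.8% and 49.5% for Serpina1c, 42.4% and 64.9% for Serpina1a and 49.1% and 76.7% for Serpina1d. The values of Serpina1a and Serpina1c therefore depend most on how shared reads were assigned, and the summed Serpina1 counts are given beside the single copies. Serpina1c also shared 429 exon bases with the gene B430119L08Rik.

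Total counts per library were 11801027 to 24497738 (median 14358966), and the 9 genes took 0.95 to 3.27% of them. Levels are given as CPM, counts scaled to a common library size, and levels of different genes are compared as deposited FPKM, which is per length. All 6 hepatocyte markers were detected in every group. Their summed level was 89029 to 120264 CPM in ff;ff, 41158 to 49798 CPM in Cpt2 L-/- and 57386 to 72335 CPM in DKO libraries, and the part of this in the results below was not tested. Rab30 L-/- libraries, at 73868 to 85249 CPM, were also below ff;ff. The sum was mostly Alb, which codes for albumin, and 3 of the 6 markers fell in Cpt2 L-/- and 3 in DKO livers, beside 11.9% and 8.24% of all genes tested that were lower. Asgr1, which codes for a hepatocyte receptor for serum glycoproteins, was at -0.27 ± 0.16 on the log2 scale in Cpt2 L-/- (adjusted p = 0.238, edgeR). Of 6 Kupffer cell and macrophage markers 3 fell in Cpt2 L-/- and 2 in DKO livers, beside the same shares of all genes, and their summed level was 128.9 to 243.8 CPM in ff;ff, 104.7 to 159.3 CPM in Cpt2 L-/- and 108.8 to 128.8 CPM in DKO libraries. Of the bile duct markers Sox9 fell in both, and the 6 summed to 15.3 to 31.9 CPM in ff;ff, 9.57 to 24.1 CPM in Cpt2 L-/- and 12.2 to 21.1 CPM in DKO libraries. Stellate cell and fibroblast markers summed to 135.2 to 253 CPM in ff;ff, 240.7 to 266.1 CPM in Cpt2 L-/- and 242.9 to 286 CPM in DKO libraries. Sinusoidal endothelium markers summed to 184.2 to 245.6, 188.9 to 212.3 and 179.7 to 239.7 CPM in the same groups. The part of these in the results was not tested either. In whole liver, fewer hepatocytes and less RNA per hepatocyte cannot be told apart. Rab30 was at 10.4 to 26.6 CPM in Rab30 L-/- against 25.9 to 44.6 CPM in ff;ff, but at 100.9 to 231.5 CPM in the libraries labelled DKO and 121.7 to 188.5 CPM in Cpt2 L-/-. In Rab30KO it was at 5.39 to 17.4 CPM, overlapping Rab30 Ctrl (6.64 to 30.1 CPM). Cpt2 was lower in DKO (96.1 to 120 CPM) than in ff;ff (128.0 to 139.0 CPM) without overlap, and in Cpt2 L-/- (95.3 to 167.3 CPM) it overlapped ff;ff. Gene counts also take reads from exons outside a deletion, so these values do not check the labels.

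Serpina3k was the most abundant per length in ff;ff livers, at 5708 ± 1337 FPKM (mean ± SD, n = 4). Serpina1e followed at 3760 ± 1115 FPKM, then Serpina1b at 2474 ± 181 FPKM, Serpina1d at 1982 ± 267 FPKM and Serpina1a at 1307 ± 186 FPKM. Serpina1c was at 790.6 ± 120.8 FPKM, Serpina3n at 421.6 ± 108.9 FPKM and Serpina3m at 311.5 ± 66.9 FPKM. Serpina3c was close to absent, with 0 to 13 counts in any library, and did not pass the filter on low counts in any comparison. 8 of the 9 genes were therefore tested. Without that filter Serpina3c was lower in Cpt2 L-/- than in ff;ff (log2 -2.55 ± 0.74, adjusted p = 0.00782, edgeR), from 1 to 3 counts a library against 7 to 13.

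**Figure D1:**
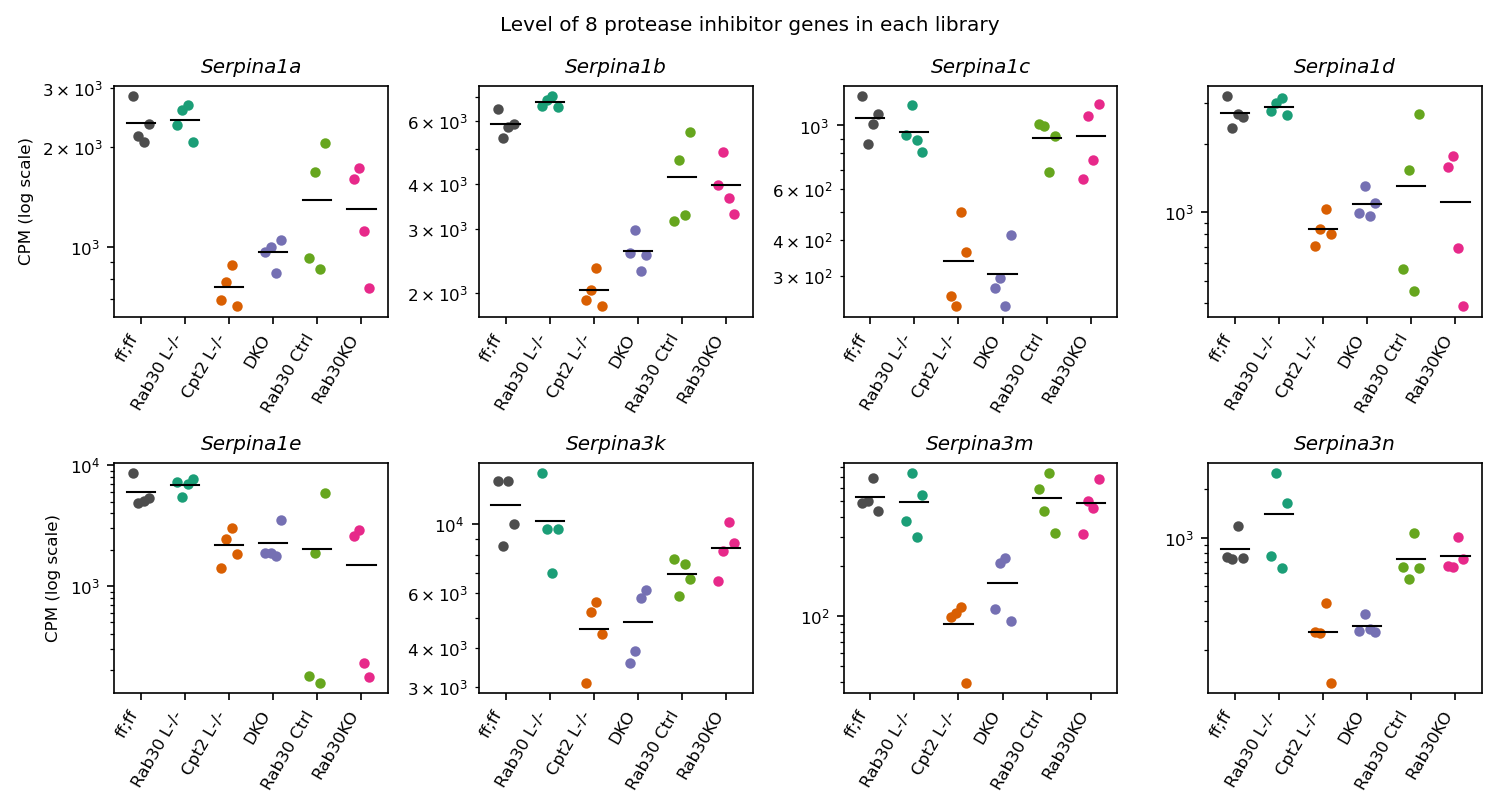
CPM of the 8 tested genes on log axes. Each point is a library, 4 in each of the 6 groups, and the black lines are group means. For every gene shown the Cpt2 L-/- and DKO points lie below all ff;ff points, and the Serpina1e points of Rab30 Ctrl and Rab30KO spread from 157.7 to 5912 CPM.

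Every tested gene of both clusters was lower in the livers labelled as lacking Cpt2 in hepatocytes. In Cpt2 L-/- livers 8 of 8 tested genes fell against ff;ff at an adjusted p of at most 0.0011 (edgeR's quasi-likelihood test, with a fold of at least 1.2 and adjusted p under 0.05 required), beside 11.9% of the 13270 genes tested that were lower and 23.8% that changed in either direction. Their median log2 fold change was -1.65, where the median of all genes tested was about 0 (-0.003). In DKO livers 8 of 8 again fell against ff;ff, with adjusted p at most 0.00437 and a median log2 fold change of -1.37, beside 8.24% of 13389 genes lower and 16.1% changed. Both comparisons use the same ff;ff libraries. The labels give ff;ff mice as littermates of DKO but not of Cpt2 L-/- or Rab30 L-/- mice, so genotype and litter cannot be told apart for those 2 groups. The values of the 2 groups did not overlap with those of ff;ff for any of these 8 genes, but the share of all genes without overlap was not counted.

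Serpina1b, an alpha-1 antitrypsin copy, was at 6468, 5392, 5758 and 5872 CPM in the 4 ff;ff libraries. It was at 1912, 2035, 2338 and 1830 CPM in the Cpt2 L-/- libraries and at 2580, 2993, 2296 and 2549 CPM in the DKO libraries. Every Cpt2 L-/- and DKO library was under the lowest ff;ff library. The Cpt2 L-/- level was 34.2% of that in ff;ff (log2 fold change -1.55 ± 0.16 SE, adjusted p = 2.46e-05, edgeR), and the DKO level 44.1% (-1.18 ± 0.16, adjusted p = 0.000619, edgeR).

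Serpina1e, the most abundant copy per length, was at 8631, 4875, 5036 and 5362 CPM in ff;ff. The Cpt2 L-/- libraries gave 1407, 2467, 2998 and 1837 CPM and the DKO libraries 1892, 1861, 1778 and 3498 CPM. The groups did not overlap, although 1 library in ff;ff and 1 in DKO lay well above the others of its group. The log2 fold change was -1.47 ± 0.26 in Cpt2 L-/- (adjusted p = 0.0011, edgeR) and -1.41 ± 0.27 in DKO (adjusted p = 0.00413, edgeR). When the spread was estimated over all 24 libraries, with the whole-body colony included, Serpina1e was the 1 gene of the 8 that no longer passed, in both comparisons (adjusted p = 0.279 for Cpt2 L-/- and 0.329 for DKO).

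The other Serpina1 copies fell by similar amounts. Serpina1d was at 30.9% of ff;ff in Cpt2 L-/- and 39.9% in DKO livers, and Serpina1a at 31.9% and 40.8%. Serpina1c was at 31.7% in Cpt2 L-/- and 28.7% in DKO livers, the lowest percentage of any Serpina1 copy in DKO. With the 5 copies summed before the fit, which removes the question of how reads were divided among them, the level was 33.9% of ff;ff in Cpt2 L-/- and 39.96% in DKO livers.

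The copies kept close to the same proportions while the sum fell. Serpina1b made up 33.0 ± 2.8% of the Serpina1 counts in ff;ff, 33.5 ± 3.6% in Cpt2 L-/- and 36.5 ± 4.7% in DKO libraries (mean ± SD, n = 4). Serpina1e made up 32.8 ± 3.8%, 34.8 ± 5.0% and 30.7 ± 6.8% in the same groups. Serpina1c departed from this in DKO, at 3.86 to 4.85% of the counts against 5.53 to 6.33% in ff;ff, with no overlap. Low shares were not particular to DKO, since Cpt2 L-/- libraries ranged from 3.69 to 6.60% and Rab30 L-/- libraries from 4.09 to 6.16%. Serpina1c is also the copy with the least sequence of its own, so its share depends on how shared reads were assigned.

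**Figure D2:**
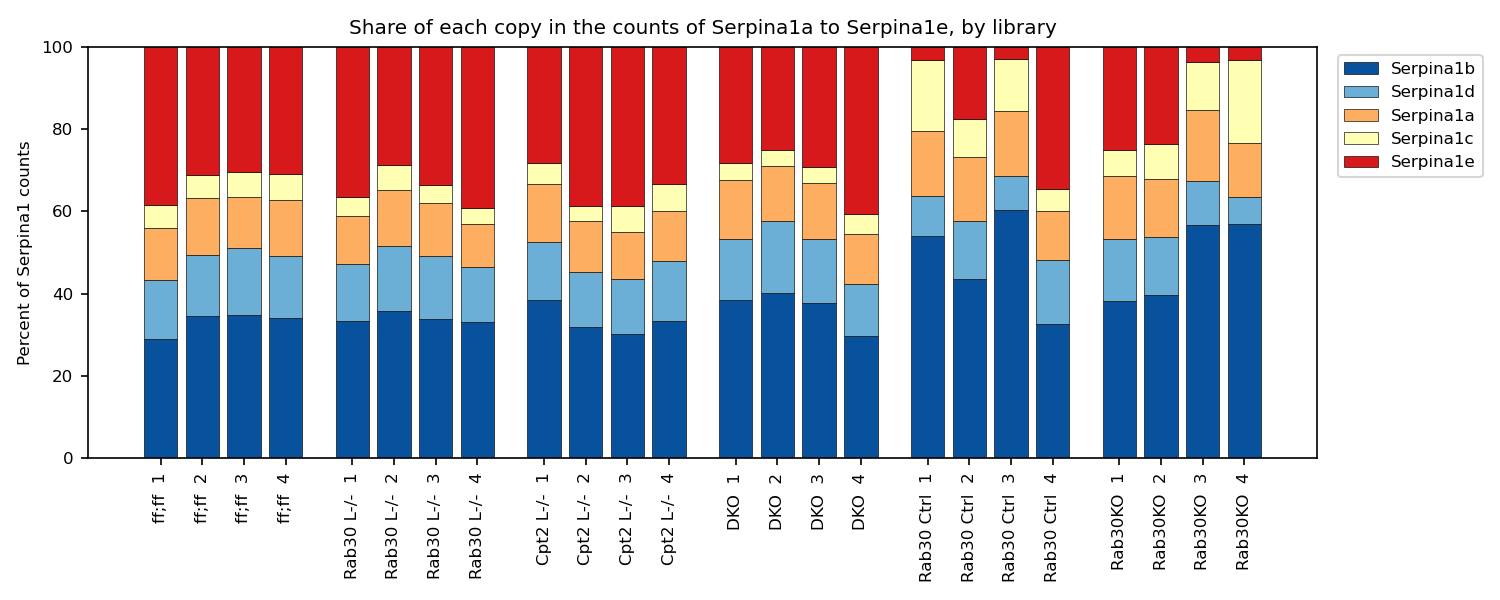
Percent of the summed Serpina1a to Serpina1e counts that each copy took, as stacked bars from 0 to 100, with 1 bar for each of the 24 libraries. In the 16 bars of the floxed groups Serpina1e takes 24.95 to 40.6%, while it takes 2.90 to 3.59% in 4 of the 8 bars of the whole-body colony.

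Serpina3k, an antichymotrypsin relative that binds tissue kallikreins in the rat and mouse, was at 13831, 8529, 13750 and 10025 CPM in ff;ff. It was at 3090, 5245, 5609 and 4442 CPM in Cpt2 L-/- and at 3578, 3927, 5790 and 6172 CPM in DKO livers. All 8 of these libraries were below the lowest ff;ff library, but the 2 groups overlapped each other almost entirely. The log2 fold changes were -1.34 ± 0.23 in Cpt2 L-/- (39.5% of ff;ff, adjusted p = 0.000932, edgeR) and -1.25 ± 0.24 in DKO (42.0%, adjusted p = 0.00437, edgeR).

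Serpina3m had the lowest fitted level relative to ff;ff of the 8 genes in Cpt2 L-/- livers. It was at 487.3, 495.8, 684.7 and 434.6 CPM in ff;ff, at 98.9, 104.9, 113.7 and 39.4 CPM in Cpt2 L-/- and at 109.7, 210.2, 223.7 and 92.9 CPM in DKO livers. Cpt2 L-/- livers held 16.8% of the ff;ff level (log2 fold change -2.57 ± 0.30, adjusted p = 7.89e-05, edgeR) and DKO livers 30.1% (-1.73 ± 0.29, adjusted p = 0.00233, edgeR). Of the summed Serpina3 counts it took 4.14 ± 0.78% in ff;ff, 1.87 ± 0.82% in Cpt2 L-/- and 3.12 ± 1.38% in DKO libraries.

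Serpina3n, an acute phase serpin known to inhibit granzyme B and leukocyte elastase, was at 754.6, 735.3, 1178 and 749.6 CPM in ff;ff. The Cpt2 L-/- libraries gave 256.3, 252.1, 391.3 and 123.8 CPM and the DKO libraries 259.6, 335.1, 269.1 and 256.5 CPM. It fell to 29.6% of ff;ff in Cpt2 L-/- (log2 fold change -1.76 ± 0.30, adjusted p = 0.00104, edgeR) and to 32.6% in DKO livers (-1.62 ± 0.19, adjusted p = 0.000247, edgeR). The 4 Serpina3 genes summed before the fit, a sum that was mostly Serpina3k, were at 37.9% of ff;ff in Cpt2 L-/- and 40.9% in DKO livers.

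The comparison of DKO with Cpt2 L-/- asks what the added loss of Rab30 changes when fatty acid oxidation is already lost. None of the 8 genes passed, beside 2.71% of the 13306 genes tested, and DESeq2's Wald test also called none of them. Serpina1b, Serpina1d and Serpina1a, which had an unadjusted p under 0.05, were each 1.29 times higher in DKO livers, with log2 fold changes of 0.37 ± 0.13, 0.37 ± 0.15 and 0.36 ± 0.13 and adjusted p of 0.141, 0.182 and 0.149 (edgeR). By p they ranked 1572, 2141 and 1665 among the 13306 genes, so many other genes had a p as low, and these copies share sequence. Their CPM values overlapped between the groups, while on the deposited FPKM scale Serpina1b did not overlap, at 967.7 to 1268 FPKM in DKO and 764.5 to 967.2 FPKM in Cpt2 L-/- livers. Serpina1c was at -0.14 ± 0.24 and Serpina1e at 0.06 ± 0.27, and both signs turned with 1 library left out, for Serpina1c without Cpt2 L-/- replicate 3 (0.10) and for Serpina1e without DKO replicate 4 (-0.22) or Cpt2 L-/- replicate 1 (-0.10) or 4 (-0.01). Among the Serpina3 genes Serpina3m was at 0.85 ± 0.39 (adjusted p = 0.248, edgeR), Serpina3k at 0.09 ± 0.22 and Serpina3n at 0.14 ± 0.28. The signs of Serpina3k and Serpina3n also turned with 1 library left out (lowest -0.0586 and -0.0862).

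The interaction of Rab30 and Cpt2, which tests whether Cpt2 loss had a different effect with and without Rab30, passed for 0 of 8 genes, beside 4.06% of 14063 genes tested. None of the 8 had an unadjusted p under 0.05, and DESeq2's Wald test called none. Serpina3m had the largest estimate, 0.96 ± 0.51 on the log2 scale, with an adjusted p of 0.284 (edgeR).

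**Figure D3:**
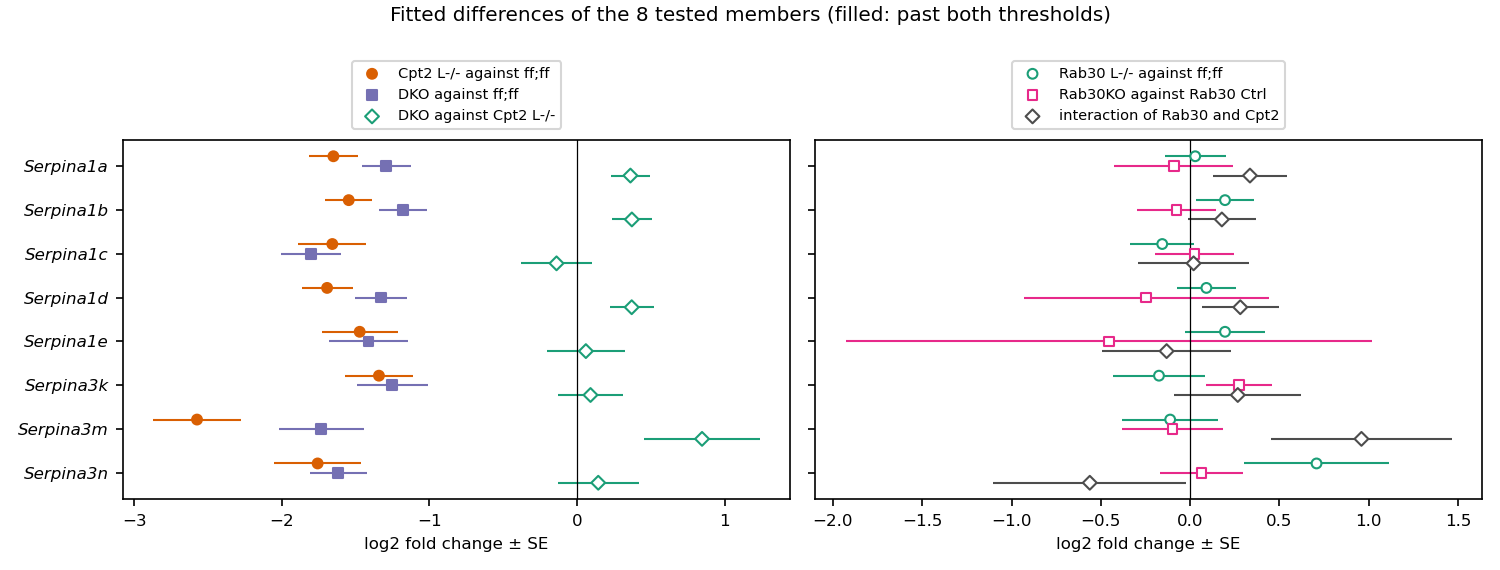
Log2 fold change with its standard error for the 8 tested genes in 5 comparisons and the interaction, with filled symbols for those past both thresholds. The filled symbols are all in Cpt2 L-/- and DKO against ff;ff, between -2.57 and -1.18, and the error bar of Serpina1e in Rab30KO against Rab30 Ctrl (SE 1.48) is the widest.

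In the livers labelled as lacking only Rab30 in hepatocytes none of the 8 genes passed the thresholds, beside 0.479% of 13367 genes tested. None had an unadjusted p under 0.05, and DESeq2's Wald test called none. Their log2 fold changes against ff;ff ran from -0.17 for Serpina3k to 0.71 for Serpina3n, with a median of 0.06. Serpina1b was the only one without overlap, at 6550 to 7012 CPM in Rab30 L-/- against 5392 to 6468 CPM in ff;ff (log2 fold change 0.20 ± 0.16, adjusted p = 0.697, edgeR). How many of all genes lacked overlap here was not counted.

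Serpina3n differed widely among the Rab30 L-/- livers, at 764.7, 2529, 642.7 and 1655 CPM in replicates 1 to 4. Replicate 2 was more than 2 times the highest ff;ff library (1178 CPM), replicate 4 also lay above it, and the other 2 lay in or just under the ff;ff range. Saa1, which codes for serum amyloid A, was at 583.8, 3128, 52.5 and 89.8 CPM in the same replicates, and Lcn2, which codes for lipocalin 2, at 4.98, 292.0, 11.7 and 47.1 CPM. Both acute phase genes were named after their values were seen. Replicate 2 was the highest for all 3 genes, and Serpina3n and Lcn2 put the 4 livers in the same order except for the lower 2. The summed neutrophil markers were at 0.604 to 15.1 CPM in Rab30 L-/- and 0.349 to 0.762 CPM in ff;ff livers, with Ly6g at 0 in all 4 Rab30 L-/- livers, and the summed macrophage markers at 177.4 to 529.9 CPM and 128.9 to 243.8 CPM. Their part in the Serpina3n values was not tested. The ff;ff livers did not show this order. Replicate 3, the highest in Serpina3n, was the lowest in Saa1 (12.8 CPM), and replicate 4, the highest in Saa1 (377.8 CPM) and Lcn2 (19.8 CPM), was at 749.6 CPM of Serpina3n.

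In whole-body Rab30KO livers against those of their littermates, none of the 8 genes passed the thresholds, beside 0.0220% of 13656 genes tested. None had an unadjusted p under 0.05, DESeq2's Wald test called none, and the log2 fold changes lay between -0.45 for Serpina1e and 0.28 for Serpina3k. The spread within these 2 groups was large for some Serpina1 copies and not for others.

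Serpina1e was at 180.3, 1878, 157.7 and 5912 CPM in the 4 Rab30 Ctrl livers and at 2619, 2921, 232.1 and 178.0 CPM in the 4 Rab30KO livers. Thus 4 livers, 2 of each genotype, were at 158 to 232 CPM, 3 were at 1878 to 2921 CPM, and 1 control was at 5912 CPM, within the ff;ff range of 4875 to 8631 CPM. The lowest library held 2495 counts of the gene. The log2 fold change between the genotypes was -0.45 ± 1.48 (adjusted p = 0.9999, edgeR), and it ran from -1.03 to 1.02 with 1 library left out.

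Serpina1d put the same libraries low, at 562.8, 1525, 450.6 and 2684 CPM in Rab30 Ctrl and 1574, 1760, 698.2 and 385.7 CPM in Rab30KO. The 4 livers with the lowest Serpina1e were also the 4 with the lowest Serpina1d, Serpina1a and Serpina1b. Serpina1a ranged from 753.6 to 2060 CPM and Serpina1b from 3162 to 5586 CPM over the 8 livers. Serpina1c did not follow, at 1011, 993.9, 687.0 and 916.4 CPM in Rab30 Ctrl and 653.9, 1082, 757.9 and 1183 CPM in Rab30KO. As a result Serpina1e took 2.90 to 3.59% of the Serpina1 counts in those 4 livers and Serpina1b 54.1 to 60.4%, against 28.9 to 34.8% for Serpina1b in ff;ff.

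Gm8893, annotated as an unprocessed pseudogene at chr12:103817856-103822243 between Serpina1d and Serpina1a and inside the span of Serpina1b, went the other way. It was at 630.7, 336.8, 504.3 and 89.4 CPM in Rab30 Ctrl and at 419.1, 424.3, 474.1 and 616.1 CPM in Rab30KO, and it was named after its values were seen. The control at 5912 CPM of Serpina1e was at 89.4 CPM of Gm8893, near the ff;ff range of 52.1 to 75.1 CPM, and the other 7 livers were at 336.8 CPM or more. In the livers labelled Cpt2 L-/- and DKO, where Serpina1e was also low, Gm8893 was not high but at 8.0 to 22.4 CPM. Gm8893 shares sequence with all 5 copies, from 103 of the 100-base stretches of Serpina1e to 205 of those of Serpina1a. With Gm8893 added to the 5 copies, the sums were 6477, 11091, 5938 and 17247 CPM in Rab30 Ctrl and 10848, 12845, 6943 and 6419 CPM in Rab30KO. The part of shared reads in these values was not tested.

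**Figure D4:**
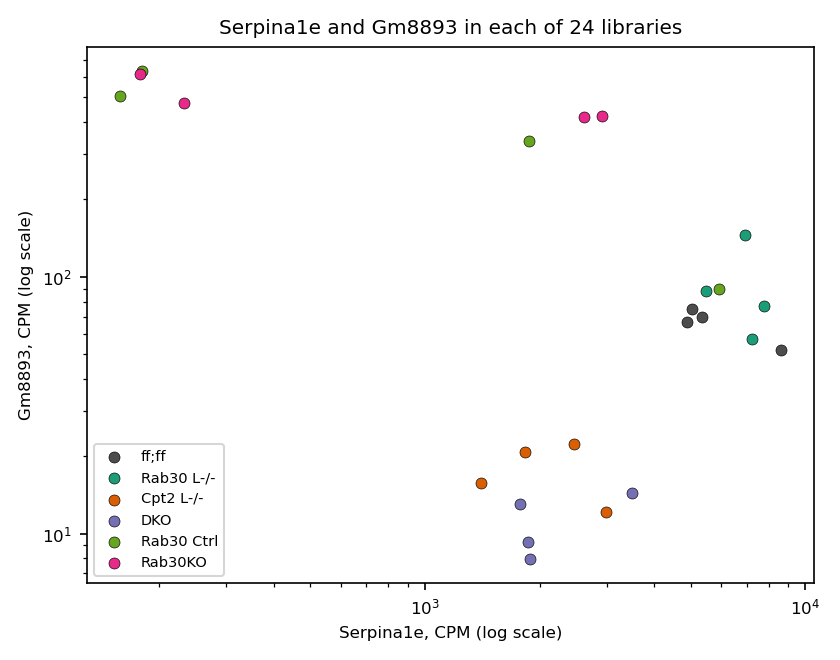
Gm8893 against Serpina1e in CPM, both on log axes, with 1 point for each of the 24 libraries, coloured by group. Rab30 Ctrl and Rab30KO points are mixed, 4 at the upper left (Serpina1e at 158 to 232 CPM), 3 at the upper right and 1 among the ff;ff and Rab30 L-/- points, while Cpt2 L-/- and DKO points lie at the bottom.

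At the other end of the region Serpina3k, Serpina3m and Serpina3n overlapped between these 4 livers and the other 4, but ran higher in the 4 livers lowest in Serpina1e. Serpina3n was at 654.3 to 1067 CPM in those 4 and 552.2 to 660.6 CPM in the others. Serpina3m was at 454.6 to 733.3 CPM and 314.9 to 495.1 CPM, and Serpina3k at 7479 to 10171 CPM and 5895 to 8204 CPM. Serpina3h, a low gene named after its values were seen, did not overlap, at 3.65 to 4.91 CPM in the 4 livers lowest in Serpina1e and 0.41 to 2.72 CPM in the other 4. Relative to the ff;ff mean, Serpina1e was at 2.64 to 3.88% in the 4 lowest livers, Serpina1d at 14.2 to 25.7% and Serpina1a at 32 to 47.6%, while Serpina11, the next serpin past Serpina1e, was at 129 to 213%, Serpina6, which lies just before Serpina1b, was at 252 to 701% (225 to 377% in the other 4 livers) and Serpina10, which lies before Serpina6, at 106 to 142%. Serpina12, the next of the serpins shown after Serpina11 and at a mean of 5.03 CPM in ff;ff, was at 7.54 to 41.6% in the 4 lowest livers and 69.7 to 154% in the other 4. Serpina4-ps1 was at 16.1 to 71% and 50.6 to 275%. Both were named after their values were seen, and both were as low in some livers of the floxed groups with Serpina1e within its ff;ff range. Serpina12 was at 10% of the ff;ff mean in Rab30 L-/- replicate 3 and 41.6% in ff;ff replicate 3, and Serpina4-ps1 at 9.13% and 16.3% in Rab30 L-/- replicates 2 and 3. Rab30 Ctrl mice were littermates of Rab30KO and ff;ff mice of DKO, so group and litter cannot be told apart in these percentages.

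**Figure D5:**
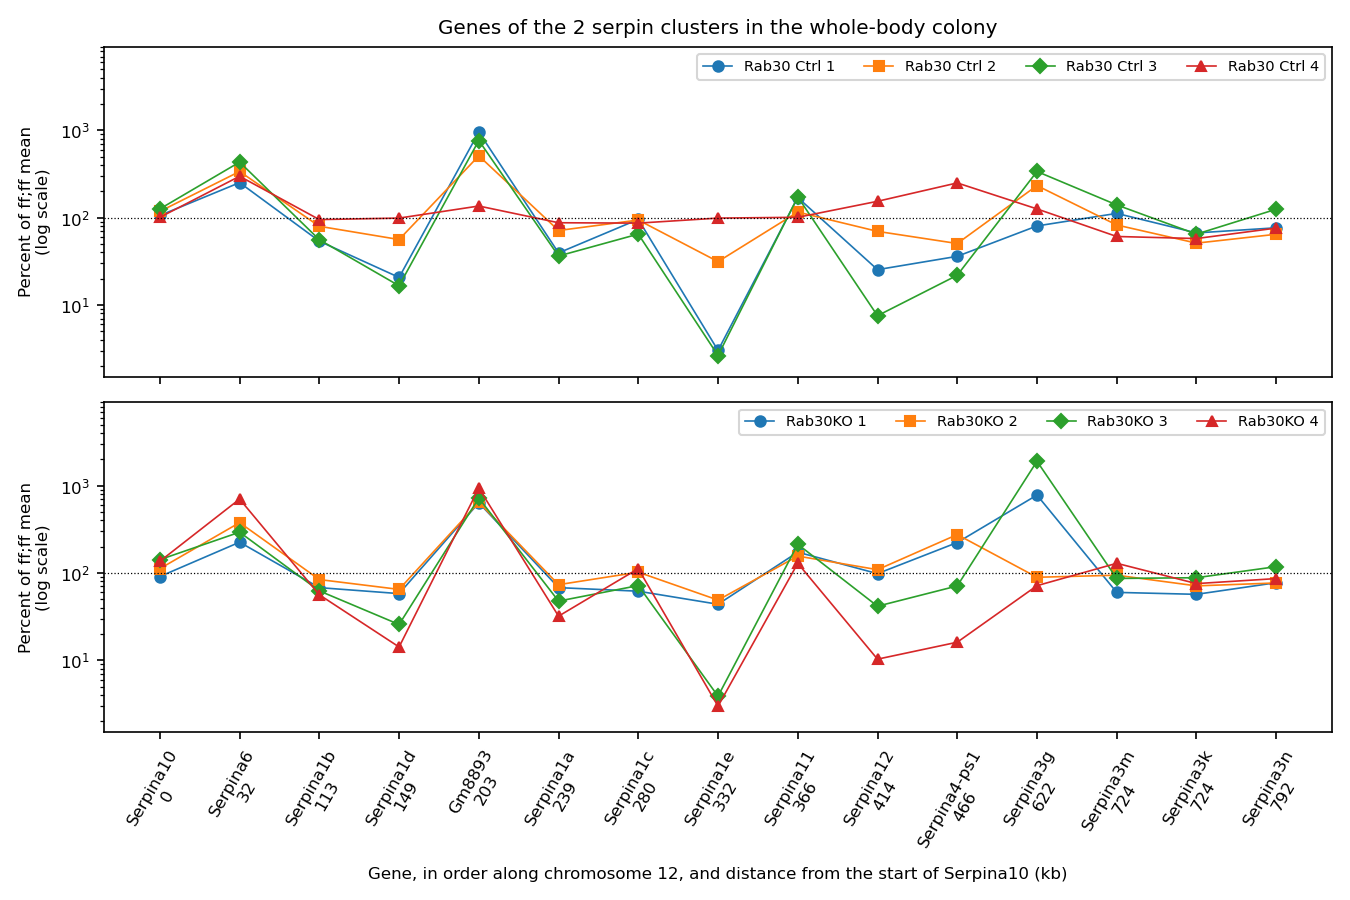
Level of 15 genes of the region as a percent of the ff;ff mean (log axis), in order along chromosome 12 with the distance from the start of Serpina10 in kb. Each line is 1 liver of the whole-body colony, controls above and knockouts below. Serpina1d, Serpina1e and Serpina12 are lowest in the same 4 livers, Serpina4-ps1 is at 16.1 to 71% there, Serpina11 between them is at 129 to 213%, and Rab30 Ctrl replicate 4 is near 100% from Serpina1b to Serpina11 apart from Gm8893 (136%).

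Promoter sequences are shown for Serpina1b and Serpina1e, the copies with the highest and the lowest share of the Serpina1 counts in those 4 livers, and for Serpina3c and Serpina3n. The table of RefSeq promoters used here (GRCm38.p6) held 7 of the 9 genes. The 250 bases before the start were 92.1 to 98.0% identical between Serpina1 copies over the aligned bases, and the letters GTTAAT, part of the site known for the hepatocyte factor HNF1, were found 1 time in each of the 5 (either strand), compared with 6.43% of 32851 promoters of the same length. They were also found 1 time in Serpina3c, 239 bases before the start, and 0 times in Serpina3n. The 100 bases before the start are given with those letters in capitals.
Serpina1b, minus strand, chr12:103738190-103738289: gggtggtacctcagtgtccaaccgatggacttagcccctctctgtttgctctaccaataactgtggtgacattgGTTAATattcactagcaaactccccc
Serpina1e, minus strand, chr12:103956898-103956997: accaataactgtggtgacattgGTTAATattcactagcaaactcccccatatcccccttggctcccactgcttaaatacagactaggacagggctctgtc
The RefSeq start of Serpina1e lies farther from these letters than that of Serpina1b, so the same bases appear earlier in its line. Serpina3c and Serpina3n were 92.7% identical over the 250 bases, although Serpina3c stood at 0.320 FPKM and Serpina3n at 421.6 FPKM in ff;ff.
Serpina3c, minus strand, chr12:104153873-104153972: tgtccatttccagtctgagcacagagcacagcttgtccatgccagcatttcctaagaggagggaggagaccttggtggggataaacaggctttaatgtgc
Serpina3n, plus strand, chr12:104406608-104406707: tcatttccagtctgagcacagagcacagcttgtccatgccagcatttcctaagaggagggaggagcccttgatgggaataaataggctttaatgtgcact
The letters TATAAA, TTCNNNGAA (a STAT site) and CAAAGTCCA (an HNF4 site) were searched on both strands, with none overlapping GTTAAT. In these 7 promoters the only match to these 3 motifs was TATAAA in Serpina3c, and they occurred in 12.4%, 7.02% and 0.384% of all promoters.

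The genes whose log2 CPM ran most like each member over the 24 libraries (Pearson r, 9230 protein-coding genes with a mean of at least 5 CPM) are given as a description, since the libraries share groups. Serpina1b ran most like Serpina1a (r = 0.95), followed by Igfbp4 and Vtn, and Serpina1a most like Serpina1b and Serpina1d (r = 0.92), then Pop5. For Serpina1d they were Serpina1a, Serpina1e (r = 0.90) and Pop5. Serpina1e ran most like Serpina1d, Dglucy (r = 0.88) and Dxo. Dglucy is also on chromosome 12, and in Rab30 Ctrl it was at 13.6, 31.9, 17.8 and 37.8 CPM and in Rab30KO at 26.3, 35.1, 14.9 and 14.4 CPM. The 4 livers lowest in Serpina1e were lowest here too, but Dglucy was picked for its r with Serpina1e over these same libraries. It was not low where Cpt2 was targeted, at 36.0 to 45.8 CPM in Cpt2 L-/- and 28.8 to 43.5 CPM in DKO, against 26.7 to 38.3 CPM in ff;ff. Serpina1c instead ran most like Cfi, Iah1 and Serpinc1 (r = 0.93 for the last). Serpina3n ran most like Fgb (r = 0.96), Hrg and Fgg, 2 of which code for fibrinogen chains. For Serpina3m they included Ang and Aldh1l1, and for Serpina3k they were Gjc3, Mgat2 and Kynu (r = 0.89, 0.89 and 0.88).

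Of 16 other serpin genes of the same region, 7 were tested in Cpt2 L-/- against ff;ff, and 3 fell and 0 rose, beside 23.8% of all genes tested that changed, with a median log2 fold change of -0.64. Serpina6, which codes for corticosteroid-binding globulin, fell with a log2 fold change of -4.04 ± 0.54 (adjusted p = 0.000894, edgeR), and Serpina11 fell too (-0.82 ± 0.25). In DKO livers 2 of 7 fell, beside 16.1% of all genes changed, namely Serpina11 (-1.28 ± 0.22) and Serpina10, an inhibitor of coagulation factor Xa (-0.67 ± 0.16). Of 13 liver serpins elsewhere in the genome, 12 were tested. In Cpt2 L-/- livers 5 fell and 3 rose, and in DKO livers 5 fell and 1 rose, so these did not move in 1 direction. Heparin cofactor II (Serpind1) fell in both, with log2 fold changes of -2.93 ± 0.25 in Cpt2 L-/- and -1.82 ± 0.24 in DKO livers, and alpha-2-antiplasmin (Serpinf2) with -1.29 ± 0.18 and -1.61 ± 0.17. Thyroxine-binding globulin (Serpina7) rose by 2.60 ± 0.49 on the log2 scale in Cpt2 L-/- and 2.17 ± 0.44 in DKO livers. Serpinf2 was the 1 serpin of these lists past the thresholds for the interaction (log2 -1.06 ± 0.25, adjusted p = 0.023, edgeR), 1 of 12 tested liver serpins elsewhere and 0 of 7 of the region beside 4.06% of all genes. Serpinh1, a collagen chaperone, was lower in DKO than in Cpt2 L-/- livers (log2 -0.91 ± 0.22, adjusted p = 0.0466, edgeR), again 1 of 12 and 0 of 7, beside 2.71% of all genes.

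Other genes around the serpins, from lists of known function, were counted in the same fits, and their counts stand beside 11.9% of all genes lower and 23.8% changed in Cpt2 L-/- and 8.24% lower and 16.1% changed in DKO livers. Of 30 acute phase genes and their regulators, 15 fell and 0 rose in Cpt2 L-/- livers (median log2 fold change -1.02), and 13 fell and 1 rose in DKO livers (-1.03). Of 16 genes of the growth hormone response, 9 fell in Cpt2 L-/- (-0.99), while in DKO livers 3 fell and 1 rose (-0.54). Of 10 tested proteases that serpins can meet, all serine proteases but cathepsin L (Ctsl), 7 fell in Cpt2 L-/- and 6 in DKO livers, and none rose. Of 15 tested hepatocyte transcription factors, 2 fell and 1 rose in Cpt2 L-/- and 3 fell and 1 rose in DKO livers, so that the share changed was below that of all genes in Cpt2 L-/- and above it in DKO livers. Of 24 cargo receptors and ER quality control genes, 7 fell and 1 rose in Cpt2 L-/- and 5 fell and 1 rose in DKO livers.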

How the data were processed

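RNA-seq was measured in 24 fasted mouse livers, and groups and replicate numbers were taken from the labels, the numbers in accession order. Counts per gene were deposited as whole numbers and were made by the authors. Per the labels' processing notes HISAT2, DESeq2 and GRCm38/mm10 were used. The counter, strand setting and read length were not given in the sources used here. The FPKM values deposited equal the counts divided by gene length and 1 scaled total per library. The normalized counts (a signal in which each count is divided by 1 size factor per library) deposited by the authors were used only as an alternative scale. Tables holding the authors' own fold changes and p-values were not used, and 0 value columns of other samples were found.

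Coordinates matched GENCODE M21 for 98% of gene rows. No 2 libraries of a group agreed within sampling noise. Low genes were filtered with filterByExpr, scaled by TMM and tested with edgeR 4.0.16 (quasi-likelihood, Benjamini-Hochberg over all genes tested) in R 4.3.3. Adjusted p under 0.05 and a fold of at least 1.2 were required, also for the interaction. Each fit held the 8 libraries compared, and 16 for the interaction. SE is the log2 fold change divided by the root of F. The labels name separate mice for each library. Total counts of 11801027 to 24497738 leave counting error small for all but Serpina3c. Alternatives were DESeq2 1.42.0, its size factors, no filter, scaling without the members, a fit over all 24 libraries, each library left out, summed clusters and the deposited scales. The test script was tested on simulated data. Sequences were aligned with MAFFT 7.526. Loop stretches were found in Python 3.11.15 from the hinge and the motif after the loop in the translated transcripts.

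The members and lists were chosen with earlier results of these data known. All 9 members were named in every comparison. From the 2 serpin lists at most 2 genes in each direction with the largest called change were named, and for likeness the 3 protein-coding genes with the highest Pearson r. A gene that these rules chose is not reported here in some cases.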

Additional observations from a re-analysis of the deposited data

Results flagged for a closer look

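Among 54 sets of 4 libraries (9 genes in 6 groups), 4 had a library whose gap to its nearest neighbour was, as a share of the group's range, over Dixon's critical value, where about 1 in 20 sets does so by chance. Serpina1e stood at 8631 CPM in ff;ff replicate 1, where the other 3 were at 4875 to 5362 CPM, and at 3498 CPM in DKO replicate 4, where the others were at 1778 to 1892 CPM. Serpina3n stood at 1178 CPM in ff;ff replicate 3, where the others were at 735.3 to 754.6 CPM, and at 335.1 CPM in DKO replicate 2, where the others were at 256.5 to 269.1 CPM. Without any of these libraries the calls against ff;ff held for both genes. The separate levels of Serpina1e in the whole-body colony did not meet this criterion, since they were not 1 library apart from 3.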

How the results depend on the processing

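All 8 tested genes stayed past the thresholds in Cpt2 L-/- and in DKO against ff;ff whichever library was left out (lowest and highest count 8 and 8), and the count was 7 to 9 in Cpt2 L-/- and 7 to 8 in DKO over the other alternatives. The 7 came from the fit over all 24 libraries, where Serpina1e was lost at log2 -1.46 ± 0.91 in Cpt2 L-/- and -1.40 ± 0.91 in DKO, and the 9 from DESeq2 or no filter, which added Serpina3c. Of 208 alternative values of called genes, 206 kept direction and call. No member passed in the other 4 tests under any alternative. Among the values that were not called, 35 of those that left out a library changed sign, and the log2 ranges without a library were, in Rab30KO against Rab30 Ctrl, -0.21 to 0.10 for Serpina1b, -0.58 to 0.39 for Serpina1d, -0.27 to 0.17 for Serpina1a, -0.12 to 0.17 for Serpina1c, -1.03 to 1.02 for Serpina1e, -0.31 to 0.11 for Serpina3m and -0.10 to 0.30 for Serpina3n. They were -0.0335 to 0.13 for Serpina1a and -0.38 to 0.0709 for Serpina3m in Rab30 L-/- against ff;ff. In DKO against Cpt2 L-/- they were -0.32 to 0.10 for Serpina1c, -0.22 to 0.24 for Serpina1e, -0.0586 to 0.21 for Serpina3k and -0.0862 to 0.41 for Serpina3n, and in the interaction -0.16 to 0.26 for Serpina1c and -0.41 to 0.0529 for Serpina1e. The summed Serpina3 counts gave -1.40 in Cpt2 L-/-, where the median member was at -1.76. All 90 levels relative to ff;ff moved by less than 1 SD with the deposited FPKM or normalized counts. Counts of all genes called moved more: from 3 to between 0 and 9 for Rab30KO, from 64 to between 23 and 309 for Rab30 L-/-, from 2157 to between 1485 and 2733 for DKO against ff;ff, from 360 to between 57 and 939 for DKO against Cpt2 L-/- and from 571 to between 300 and 1062 for the interaction. The cause of these changes was not tested. No paired analysis was possible because the replicate numbers are only in accession order.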

Other observations

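Serpina3g, a serpin of the same region expressed by lymphocytes and activated myeloid cells, was at 44.4 and 108.5 CPM in Rab30KO replicates 1 and 3, while the other 22 libraries were at 3.06 to 19.3 CPM. It was named after its values were seen. The summed macrophage markers (6 of 6 detected) were at 206.6 to 1036 CPM in Rab30KO and 305.0 to 502.5 CPM in Rab30 Ctrl livers, and their part in this was not tested.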
